A study of Mus musculus with 2 samples.

Results

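The miRNA genes that lie inside the mouse Hox clusters were examined in hearts of mouse embryos. They are Mir10a, Mir10b, Mir615, Mir196b, Mir196a-2 and Mir196a-1, or 6 of the 1973 gene rows in each of the tables used. The members were found by matching the gene identifiers of the tables to GENCODE names on mm10, and they were ordered by their place along the clusters. Short RNAs under 30 nucleotides had been sequenced from total RNA of healthy B6NCrl hearts at embryonic day 13.5. Male and female embryos were pooled. The labels give 1 group of 2 biological replicates from separate biosamples of 1 donor record (n = 2), with no second condition. The comparisons open to these data were therefore between loci within a heart library and between the replicates. P-values between the replicates test whether the reads of those 2 libraries differ beyond counting error. They do not measure the spread between replicates.

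Hox genes encode transcription factors that give cells their position along the body axis. Mammals carry them in separate clusters, and genes at the 3′ end of a cluster are switched on earlier and further towards the head than genes at the 5′ end. miRNAs of the clusters are transcribed from the same strand as the Hox genes around them. The miR-10 loci sit near Hox4 genes and miR-615 sits in Hoxc5, towards the anterior end. The miR-196 loci sit near Hox9 and Hox10 genes, towards the posterior end. A miRNA guides Argonaute proteins to messenger RNAs mainly through bases 2 to 8 of its mature strand, the seed. Hox messenger RNAs are among the known targets of miR-10 and miR-196, and cleavage of Hoxb8 messenger RNA by miR-196 was described in mouse embryos. In the heart, Hox genes of the anterior end are known to be active in progenitors that contribute to the outflow tract and atria.

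The mature strands are shown because their likeness sets which loci can be counted apart. Sequences were taken from RefSeq on GRCm38.p6, run 5′ to 3′, and carry the seed in capitals.
miR-10a-5p (Mir10a): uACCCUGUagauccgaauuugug
miR-10b-5p (Mir10b): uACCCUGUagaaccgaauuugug
miR-196a-5p (Mir196a-1 and Mir196a-2): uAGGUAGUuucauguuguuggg
miR-196b-5p (Mir196b): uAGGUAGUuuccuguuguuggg
miR-615-3p (Mir615): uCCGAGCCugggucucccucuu
miR-615-5p (Mir615): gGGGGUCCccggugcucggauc
The miR-10 strands shared a seed and differed by 1 substitution over 23 nucleotides, U12A from miR-10a-5p to miR-10b-5p, counted from the 5′ end. The miR-196 strands also shared a seed and differed by 1 substitution over 22 nucleotides, A12C from miR-196a-5p to miR-196b-5p. No other gene of the RefSeq miRNA table carried the seed of any member. Mir615 was the richest in G and C, with 63.6% G and C in its 3p strand and 77.3% in its 5p strand, against 40.9% to 45.5% in the 5p strands of the other members. Their 3p strands ranged from 36.4% to 59.1%, the highest in miR-196b-3p, so the 3p strand of Mir615 stood apart less than its 5p strand.

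Mir196a-1 and Mir196a-2 make the same miR-196a-5p, so a read of it cannot be placed at either locus. Their RefSeq hairpins are given with the mature strands in capitals.
Mir196a-1: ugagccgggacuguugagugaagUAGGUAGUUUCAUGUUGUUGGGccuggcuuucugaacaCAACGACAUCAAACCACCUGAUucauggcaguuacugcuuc
Mir196a-2: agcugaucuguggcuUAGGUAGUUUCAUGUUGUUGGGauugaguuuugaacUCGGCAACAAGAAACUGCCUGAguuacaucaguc
The longest run shared by the hairpins was 22 nucleotides, which is the whole 5p strand. Their 3p strands had no run of over 10 nucleotides in any other hairpin of the table and can be placed. Reads mapping to several places form a class of their own in the tables and held 26.9% of reads in replicate 1 and 28.0% in replicate 2. No source says whether such reads were also counted at a gene, and here they are read as left out. On that reading, the rows of Mir196a-1 and Mir196a-2 are lower bounds on miR-196a. The mature strands of Mir10a, Mir10b, Mir196b and Mir615 were whole in no other hairpin. How reads with a mismatch were placed is not known, since the aligner is not given. The hairpins of Mir10a and Mir10b shared at most 15 nucleotides.

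Sense counts at miRNA genes summed to 5569959 of 12136246 reads in replicate 1 and to 6039005 of 12282789 reads in replicate 2. Levels are sense counts per 1000000 of these sums (CPM). A miRNA read spans about 1 mature strand, so counts were not divided by the length of the row. Counts are compared between loci as reads per locus and not as molecules. Whether some sequences gave more reads per molecule than others was not tested. A count of 0 allows up to 3 counts, which is 0.539 CPM for replicate 1 and 0.497 CPM for replicate 2. These limits and the intervals given with counts hold for counting error alone, because PCR copies are not separate molecules. The heart label was checked on Mir208b, the miRNA of the cardiac myosin gene Myh7, which had 41700 CPM in replicate 1 and 44200 CPM in replicate 2. Of other heart muscle miRNAs, Mir208a had a mean of 7263 CPM and Mir499 one of 1825 CPM. Mir1a-1 and Mir133a-1 were low, at means of 4.066 and 2.892 CPM, and Mir133a-2 was at 0. Reads that map to several places may be missing from these rows, so low rows do not show that miR-1a or miR-133a was scarce. In bulk tissue, fewer cells of a type and less RNA per cell cannot be told apart.

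The 6 loci were the only miRNA rows from 20000 bases before the first to 20000 bases after the last Hox gene of the 4 clusters. HoxA held 11 Hox genes and 1 miRNA row, HoxB 10 and 2, HoxC 9 and 2, and HoxD 9 and 1. Mir10a, Mir10b and Mir615 were taken as anterior loci and the 3 miR-196 loci as posterior ones, by the Hox gene with the next 3′ end downstream. That gene was of paralog group 4 or 5 for the anterior loci and of group 9 for the posterior ones. The next 3′ end upstream was that of Hoxd8 for Mir10b and of Hoxc6 for Mir615, and it did not enter the choice. The HoxA cluster was thus represented by a posterior locus alone and HoxD by an anterior locus alone.

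**Figure D1:**
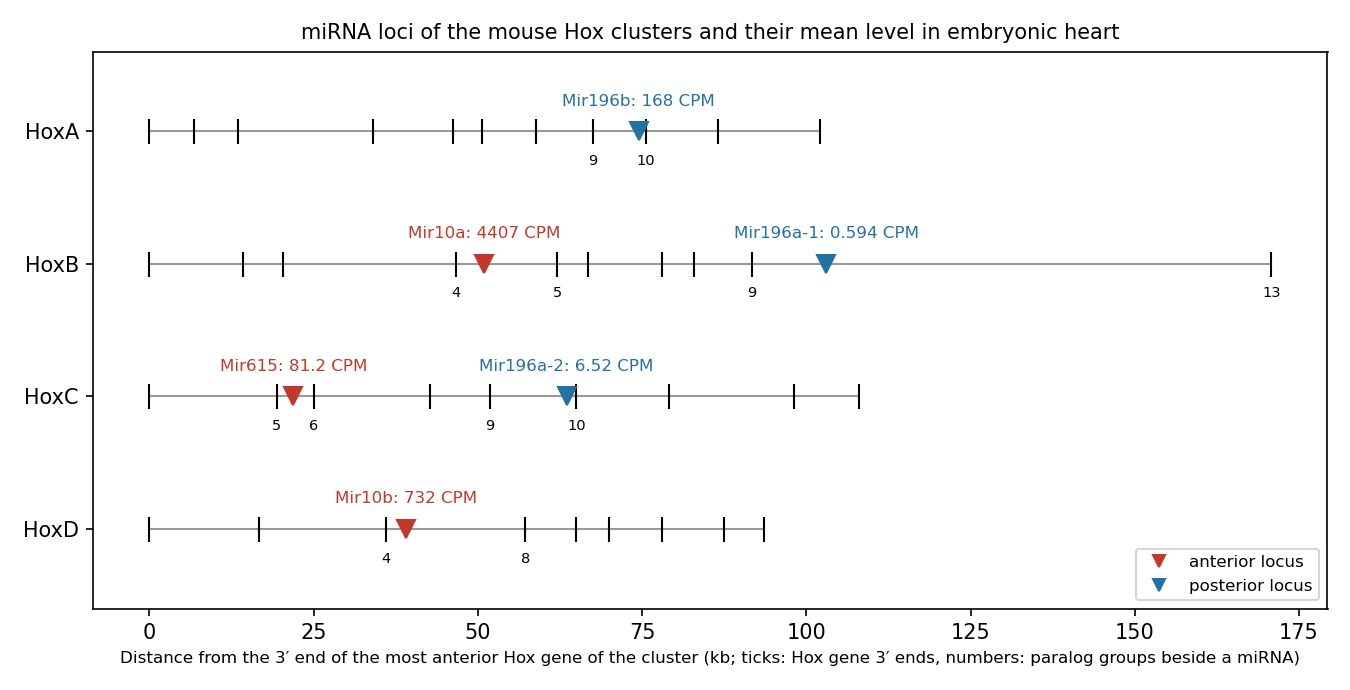
The 4 Hox clusters are drawn from their most anterior Hox gene on the left, with distance in kb on the x axis and the 3′ end of each Hox gene as a tick, numbered by paralog group where it flanks a miRNA. Triangles mark the miRNA loci (red anterior, blue posterior) with their mean CPM over 2 libraries, which runs from 4407 CPM for Mir10a in HoxB to 0.594 CPM for Mir196a-1 in the same cluster.

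Mir10a, the miR-10 locus of HoxB, was by far the most abundant of the anterior loci. Mir10a (ENSMUSG00000065519.1) lies on chromosome 11 from 96317165 to 96317274 on the plus strand, between the 3′ ends of Hoxb5 and Hoxb4 and 4.4 kb from that of Hoxb4. No other annotated transcript on its strand spanned it. It had 27032 counts in replicate 1, or 4853 CPM (exact Poisson 95% interval 4800 to 4910), and 23923 counts in replicate 2, or 3961 CPM (3910 to 4010). Its mean was 4407 ± 631 CPM (SD, n = 2), which placed it at rank 32 of all rows. Mir10a held 81.7% of all counts at the 6 loci and 0.441% of all sense counts.

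Mir10b, the miR-10 locus of HoxD, came next. Mir10b (ENSMUSG00000065500.2) lies on chromosome 2 from 74726070 to 74726137 on the plus strand, in an intron of Hoxd4 and of the long Hoxd3 transcript Hoxd3-203. Its counts were 4982 in replicate 1 and 3441 in replicate 2. Its level was 894.4 CPM in replicate 1 (870 to 920) and 569.8 CPM in replicate 2 (551 to 589), a mean of 732.1 ± 230 CPM at rank 93. Mir10b made up 13.6% of the counts at the 6 loci, so that the miR-10 loci together held most of the miRNA reads of the Hox clusters.

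Mir615, the anterior locus of HoxC, was low. Mir615 (ENSMUSG00000076010.1) lies on chromosome 15 from 103014910 to 103015001 on the plus strand, in an intron of Hoxc5, including the coding transcript Hoxc5-201. It had 574 counts in replicate 1 and 358 in replicate 2, or 103.1 CPM (94.8 to 112) and 59.28 CPM (53.3 to 65.8). The mean was 81.17 ± 31.0 CPM at rank 192, and replicate 1 lay above replicate 2 beyond the counting intervals.

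Mir196b led the posterior loci. Mir196b (ENSMUSG00000065443.1) lies on chromosome 6 from 52230081 to 52230165 on the minus strand, 1.1 kb from the 3′ end of Hoxa10. It falls in an exon of the non-coding Hoxa9 transcripts Hoxa9-204 and Hoxa9-205 and in an intron of Hoxa9-203. Its counts were 1021 in replicate 1 and 926 in replicate 2. These gave 183.3 CPM (172 to 195) in replicate 1 and 153.3 CPM (144 to 164) in replicate 2, a mean of 168.3 ± 21.2 CPM at rank 152. Mir196b had the smallest spread between the libraries, relative to its mean, of the 6 loci.

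The loci of miR-196a had few counts of their own. Mir196a-2 (ENSMUSG00000065488.1) lies on chromosome 15 from 102973350 to 102973434 on the plus strand, 1.5 kb from the 3′ end of Hoxc10 and in an intron of the non-coding transcript Hoxc5-202, which also spans Mir615. It had 44 counts in replicate 1 and 31 in replicate 2, or 7.90 CPM (5.74 to 10.6) and 5.133 CPM (3.49 to 7.29), with a mean of 6.516 ± 1.96 CPM. Mir196a-1 (ENSMUSG00000065546.1) lies on chromosome 11 from 96265164 to 96265265 on the plus strand, between Hoxb13 and Hoxb9. It had 2 counts in replicate 1 and 5 in replicate 2, or 0.359 CPM (0.0435 to 1.3) and 0.828 CPM (0.269 to 1.93). The count in replicate 1 was under the 3 counts that a count of 0 allows. The intervals of the libraries overlapped, so the libraries cannot be told apart at Mir196a-1.

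**Figure D2:**
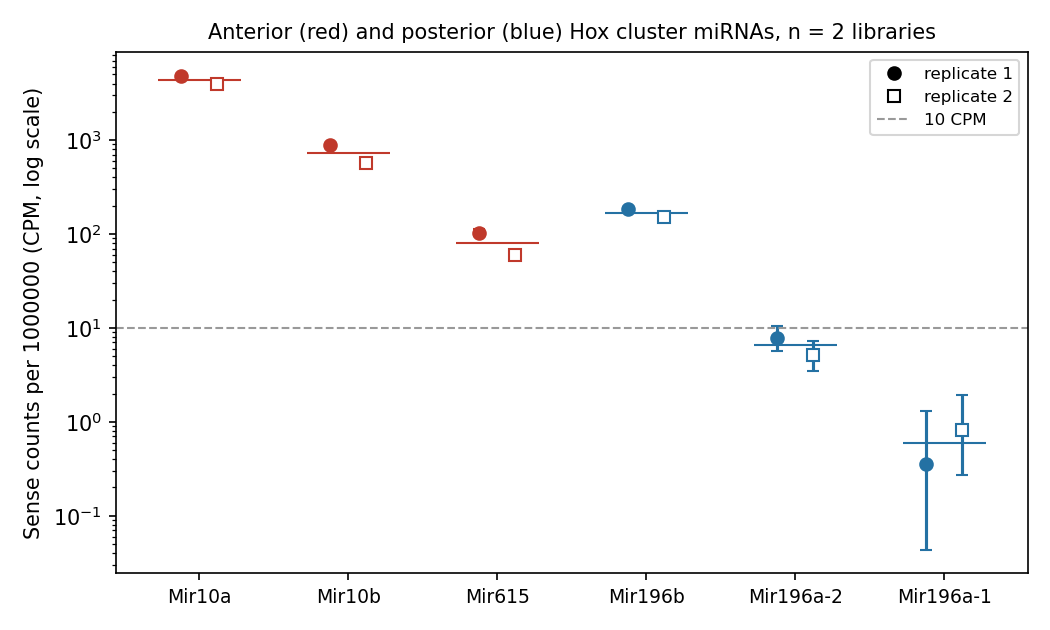
Level of each locus in sense counts per 1000000 on a log y axis, with anterior loci in red and posterior loci in blue. Filled circles are replicate 1, open squares replicate 2, horizontal lines the mean and vertical bars the exact Poisson 95% interval of each count; Mir615, an anterior locus, sits at 103.1 and 59.28 CPM, below both values of the posterior Mir196b at 183.3 and 153.3 CPM.

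From high to low, the order was Mir10a, Mir10b, Mir196b, Mir615, Mir196a-2 and Mir196a-1 in both libraries. No neighbours in that order overlapped in the values of their libraries. The lowest interval bound of Mir196a-2 was 3.49 CPM and the highest bound of Mir196a-1 was 1.93 CPM. The highest library of Mir615, at 103.1 CPM, lay below the lowest library of Mir196b, at 153.3 CPM. With 2 libraries an exact permutation test cannot go below 0.5, so the order carries no p-value.

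Summed over the rows as counted, anterior loci far outweighed posterior ones. The anterior loci had 32588 counts in replicate 1 and 27722 in replicate 2, against 1067 and 962 at the posterior loci. Anterior loci took 0.522% ± 0.0891 of all sense counts and posterior loci 0.0175% ± 0.00228 (SD, n = 2). Anterior over posterior counts gave a ratio of 30.5 (28.7 to 32.5, exact 95% interval) in replicate 1, against 28.8 (27.0 to 30.8) in replicate 2. The mean log2 ratio was 4.89 ± 0.0593, so the gap between the sides was much larger than the spread between the libraries. That spread would not show a bias between sequences that both libraries share. If reads of miR-196a-5p are missing from the rows, the posterior sum is a lower bound and the ratio an upper one. Against Mir196b alone, whose mature strands were whole in no other hairpin, the anterior loci were 31.9 times as high in replicate 1 and 29.9 times in replicate 2. That comparison leaves out miR-196a altogether.

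The gap rested on the miR-10 loci and did not extend to each anterior locus. Mir615 over Mir196b was 0.562 in replicate 1 (0.507 to 0.623) and 0.387 in replicate 2 (0.341 to 0.437), a mean log2 ratio of -1.10 ± 0.382. The anterior locus was thus the lower one in both libraries. Mir10b over Mir196b was 4.88 in replicate 1 (4.56 to 5.22) and 3.72 in replicate 2 (3.45 to 4.0), and Mir10a over Mir196b was 26.5 (24.9 to 28.2) and 25.8 (24.2 to 27.6). Distance from the most anterior Hox gene of a cluster did not order the levels across clusters either. Mir10b lay 39.0 kb from the 3′ end of Hoxd1 and Mir10a 51.0 kb from that of Hoxb1, so the nearer locus was the lower one. Mir615 lay at 21.9 kb, but from Hoxc4, since HoxC starts there. Its distance is therefore not on the same scale. By flanking genes, Mir615 lay between Hoxc6 and Hoxc5 and Mir10a between Hoxb5 and Hoxb4.

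Within a cluster, the row of the anterior locus was the higher one in both clusters that hold loci of both sides. In HoxB, Mir10a over Mir196a-1 had a log2 ratio of 11.44 ± 0.509 with 1 CPM added to each level. The ratio of the counts was 13500 in replicate 1 (3740 to 112000) and 4780 in replicate 2 (2050 to 14700), wide because Mir196a-1 had so few counts. In HoxC, Mir615 over Mir196a-2 had a log2 ratio of 3.42 ± 0.177 on the same scale, with count ratios of 13 (9.59 to 18.2) in replicate 1 and 11.5 (7.99 to 17.3) in replicate 2. Both posterior partners were loci of miR-196a, so both ratios are upper bounds if reads shared by those loci are absent from their rows. An upper bound does not set the direction, so on that reading the order of the loci within a cluster is not settled. Between clusters, the sums were 168.3 ± 21.2 CPM in HoxA, 4408 ± 630 CPM in HoxB, 87.68 ± 32.9 CPM in HoxC and 732.1 ± 230 CPM in HoxD.

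The miR-10 paralogs share their seed and differed in level. Mir10a over Mir10b was 5.43 in replicate 1 (5.26 to 5.59) and 6.95 in replicate 2 (6.71 to 7.21), a mean log2 ratio of 2.62 ± 0.253. The intervals of the libraries did not overlap, so the ratio itself moved between the replicates by more than counting error. Mir10b over Mir615 moved less, at 8.68 (7.96 to 9.48) in replicate 1 and 9.61 (8.62 to 10.7) in replicate 2, with overlapping intervals. Among the miR-196 loci, Mir196b over Mir196a-2 was 23.2 (17.2 to 32.1) in replicate 1 and 29.9 (20.9 to 44.2) in replicate 2.

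**Figure D3:**
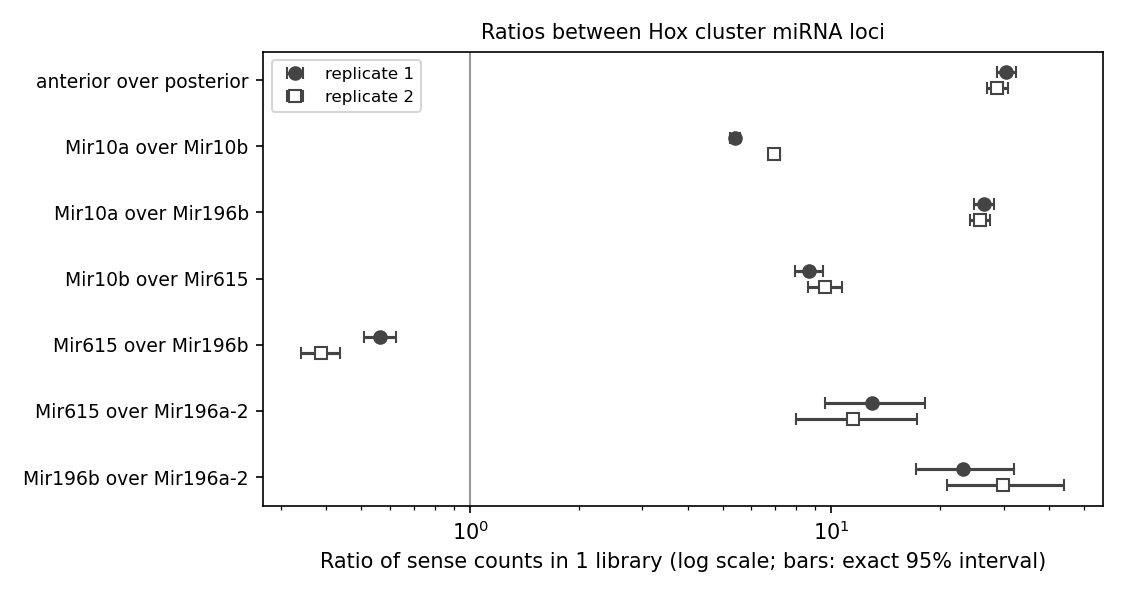
Ratios of sense counts between loci on a log x axis, with filled circles for replicate 1, open squares for replicate 2 and bars for the exact 95% interval. Ratios right of the line at 1 are higher in the first-named locus; Mir615 over Mir196b, at 0.562 and 0.387, is the one ratio left of it.

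The miR-99 and miR-100 loci lie outside the Hox clusters and make relatives of miR-10. For miR-99a and miR-100, the longest stretch shared with miR-10a-5p is in capitals.
miR-99a-5p: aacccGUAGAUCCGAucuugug
miR-100-5p: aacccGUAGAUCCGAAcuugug
The shared run was 10 nucleotides in miR-99a-5p and 11 in miR-100-5p, and it begins at base 7 of miR-10a-5p and at base 6 of the relatives, so the seeds differ. The run was only 5 nucleotides between miR-10a-5p and miR-99b-5p, and also 5 between miR-10b-5p and miR-99a-5p. The miR-10 loci had 5139 ± 860 CPM and the 3 relatives Mir99a, Mir99b and Mir100 together 90810 ± 3340 CPM. The ratio was 0.0617 (0.061 to 0.0624) in replicate 1 and 0.0512 (0.0506 to 0.0519) in replicate 2. Mir10a alone lay close to Mir100, which had 6579 CPM in replicate 1 and 6245 CPM in replicate 2, and the libraries of Mir10a, at 4853 and 3961 CPM, did not overlap with those.

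The libraries were set against each other at the 288 genes with a mean of 10 CPM or more, of which Mir10a, Mir10b, Mir196b and Mir615 are 4. A gene was called different at a Benjamini-Hochberg adjusted p under 0.05 in a two-sided exact conditional binomial test and a ratio of at least 1.5 with 1 CPM added. It sets the reads of one library against those of the other and tests no condition. All 4 members had a log2 ratio above 0, higher in replicate 1, where 65.6% of the 288 genes did. All 4 had an adjusted p under 0.05, against 43.1% of genes that did so while higher in replicate 1. Mir10b and Mir615 were called higher in replicate 1, which is 2 members where 4.86% of genes were called in that direction. In all, 17 genes were called, 14 higher and 3 lower in replicate 1.

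Mir615 was 1.74 times as high in replicate 1 as in replicate 2 (exact 95% interval 1.52 to 1.99), a log2 ratio of 0.79 with an exact adjusted p of 4.75e-16. Mir10b was 1.57 times as high (1.5 to 1.64), a log2 ratio of 0.65 with an exact adjusted p of 1.98e-92. Mir10a had a log2 ratio of 0.29 and Mir196b one of 0.26, and neither reached the ratio of 1.5. No order of anterior and posterior loci stood over all 6 ratios, since the posterior Mir196a-2, under 10 CPM and not tested, had 7.90 CPM in replicate 1 and 5.133 CPM in replicate 2, and Mir196a-1 had 0.359 and 0.828 CPM. The ratios of Mir10a, 1.23 (1.20 to 1.25), and Mir196b, 1.20 (1.09 to 1.31), did not differ beyond their intervals. The median of all 288 genes was 0.10 on the same scale.

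Scaling shifted the log2 ratios by about the same amount at every gene, -0.103 under TMM factors and -0.116 under DESeq2 size factors. The DESeq2 size factors were 1 in both libraries, so that alternative set the counts side by side with no scaling for depth. Under TMM, the log2 ratios were 0.69 for Mir615, 0.55 for Mir10b, 0.19 for Mir10a and 0.15 for Mir196b. All 4 stayed above 0, where 49.3% of genes did. The exact test gave Mir196b an adjusted p of 0.0341 under TMM and 0.0564 under DESeq2 size factors, which is above 0.05. Mir615 was the 1 member still called, where 2.78% of genes were called higher in replicate 1 under TMM. Mir10b fell short of the ratio of 1.5 under both alternatives. The split of calls moved from 14 higher and 3 lower with total counts to 8 and 8 with TMM.

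**Figure D4:**
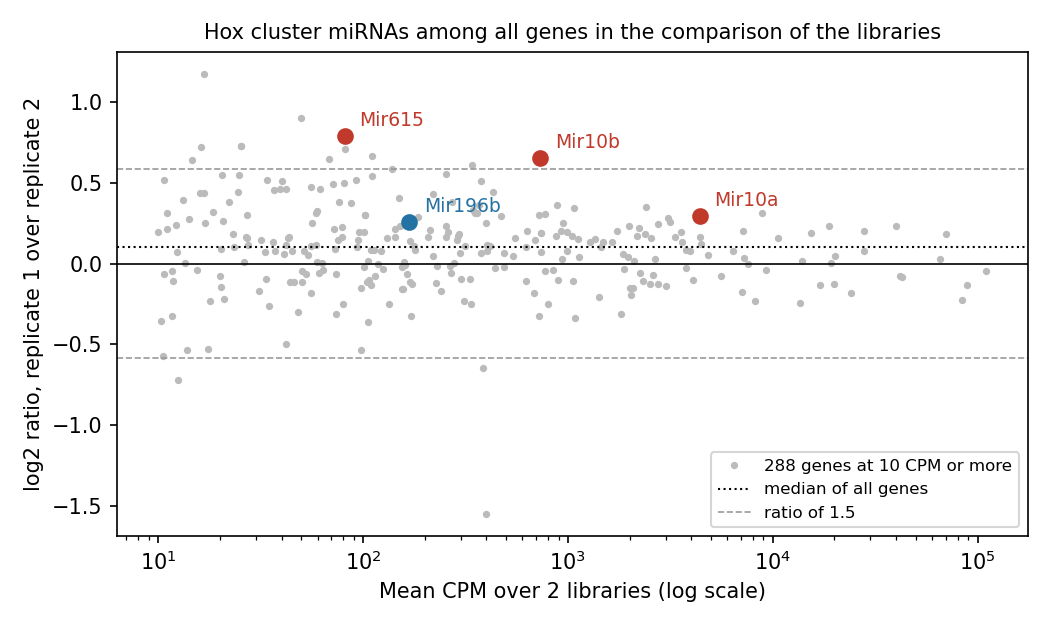
Each dot is 1 of the 288 genes at 10 CPM or more, with the mean CPM on a log x axis and the log2 ratio of replicate 1 over replicate 2 on the y axis. Mir615 (0.79) and Mir10b (0.65) lie above the dashed line for a ratio of 1.5, while Mir10a (0.29) and Mir196b (0.26) lie between it and the dotted median of all genes.

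Marker miRNAs of several other cell types were higher in replicate 1, as were Mir10b and Mir615. All 3 measured erythroid miRNAs were higher in replicate 1, with 1261 CPM summed in replicate 1 and 959.4 CPM in replicate 2, and 1 was called. Of 12 neural rows, 5 reached 10 CPM and all 5 were higher in replicate 1, with 2 called and sums of 266.1 and 201.5 CPM; Mir124a-1, Mir124a-2, Mir124a-3 and Mir9-2, among the defining neural loci, were at 0 in both, but miR-124 and miR-9 are each made from several loci and their reads may lie in the multi-mapping class. All 7 epithelial miRNAs were higher in replicate 1, with 1 called and sums of 2430 CPM in replicate 1 and 1895 CPM in replicate 2. Of 3 leukocyte miRNAs at 10 CPM, 2 were higher and 1 was called, with sums of 662.3 and 516.1 CPM, and Mir155 was lower in replicate 1. These counts are to be read against the 65.6% of all 288 genes that were higher in replicate 1, and 2 of 3 leukocyte miRNAs is near that share. The calls are to be read against the 4.86% of the 288 genes called higher in replicate 1.

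Other lists went the opposite way or moved little. The 6 liver and endoderm miRNAs held a sum of 812.4 CPM in replicate 1, against 1340 CPM in replicate 2, with 2 called lower in replicate 1. Those were Mir122, at 201 CPM in replicate 1 and 591 in replicate 2, and Mir375, at 301 and 471 CPM, while 2 of the 6, Mir192 and Mir215, were higher in replicate 1. Of all 288 genes, 3 were called lower in replicate 1. The heart muscle list held 50720 CPM in replicate 1, against 53390 CPM in replicate 2, with none of its 3 members at 10 CPM called. Mir133a-2 was at 0 in both. As Mir133a-1 and Mir133a-2 both make miR-133a, its reads may also lie in the multi-mapping class. The smooth muscle miRNAs had 85140 CPM in replicate 1, against 93530 CPM in replicate 2, the endothelial Mir126a had 74880 and 66020 CPM, and the skeletal muscle list had 83.3 and 118.4 CPM, with none called. The part that these cell types had in the ratios of Mir10b and Mir615 was not tested.

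The genes nearest to each member in both libraries were found by the Euclidean distance of log2(CPM + 1) over 2 libraries, which measures level more than pattern. Mir98, of the let-7 family, and Mir744 were nearest to Mir10a, at distances of 0.091 and 0.126. Mir1193 and the erythroid Mir451a were nearest to Mir10b, at 0.25 and 0.287, so no gene matched both libraries of Mir10b closely. Mir874 and Mir669l were nearest to Mir196b, at 0.089 and 0.159. Mir6236 and Mir486 were nearest to Mir615, at 0.025 and 0.065, and Mir486 had 101.6 CPM in replicate 1 and 61.93 CPM in replicate 2, beside 103.1 and 59.28 CPM for Mir615.

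Sequences matching the member seeds were looked up in the longest annotated 3′ untranslated region of each gene, on the transcript strand. Hox messenger RNA was not analysed here, and a match is a description and not a shown target. The miR-196 match ACTACCT was in 9 of 39 Hox genes (23.08%), against 1277 of 20973 genes in all (6.09%). Per length, it occurred 34.02 times per 100 kb in Hox genes and 4.55 times in all genes. The bases of the miR-196 seed also lie in let-7a-5p and let-7g-5p, from base 3 on. ACTACCT can therefore pair with those let-7 forms as well. The miR-10 match ACAGGGT was in 4 of 39 Hox genes (10.26%), against 12.47% of all genes. Per length it was about as frequent, at 10.47 times per 100 kb in Hox genes and 9.99 times in all genes. The miR-615-3p match GGCTCGG was in Hoxb4 alone, or 2.56%, against 2.28%. That 1 match came to 2.62 per 100 kb in Hox genes, against 1.63 in all genes.

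Over its whole length, miR-196a-5p paired best with Hoxb8 among the Hox genes. The site is shown because miR-196 and Hoxb8 are a known pair. It was taken from the GENCODE M21 transcript Hoxb8-201 of chromosome 11, bases 418 to 439 of its 3′ untranslated region, with the bases opposite the seed in capitals.
Hoxb8 site: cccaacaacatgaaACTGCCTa
It made 21 Watson-Crick pairs and 1 G:U pair with miR-196a-5p and left no base unpaired, and the next best site, in Hoxd8, made 15 Watson-Crick pairs. With miR-196b-5p, base 12, the substituted position, was left unpaired and 20 Watson-Crick pairs remained. The G:U pair lay at base 5 of the seed, so Hoxb8 holds no exact ACTACCT and is not among the 9 genes. Of the 2 forms, the one counted at Mir196b was the more abundant at its own row, with 168.3 ± 21.2 CPM, against 6.516 ± 1.96 CPM at Mir196a-2 and 0.594 ± 0.332 CPM at Mir196a-1. Those rows are lower bounds on miR-196a if reads shared by its loci were left out.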

How the data were processed

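For each miRNA gene the authors deposited a read count, made on mm10 with GENCODE M4 according to the notes that accompany the tables. Their aligner and counter, not given in the sources used here, remain unknown. Each table has a column for both strands, for the sense strand and for the opposite strand. Members and lists were chosen with earlier results of these data known.

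Sense counts were divided by their sum over all gene rows, leaving out the read classes (unmapped, 21.2% of reads in replicate 1 and 17.2% in replicate 2; no feature, 3.60% and 2.92%; and multi-mapping). Names, hosts and positions came from GENCODE M21 on mm10, which matched 1894 of 1973 identifiers. A host is a transcript on the same strand that spans the locus. The side of a locus was set by the Hox gene with the next 3′ end downstream. Span was not used, since the transcript Hoxc5-202 spans Mir196a-2 and would make Hoxc5 its nearest gene. Named genes were all members, the 2 nearest genes of each member at 10 CPM or more, other miRNAs of the clusters or with a member's seed (none), and Mir99a, Mir99b and Mir100.

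With 1 group, no edgeR contrast could be fitted. Counts were compared between libraries with an exact conditional binomial test, total counts as offset, checked on simulated counts. Scaling alternatives were TMM (edgeR 4.0.16) and size factors (DESeq2 1.42.0) in R 4.3.3. Others were the minimum level, the ratio, the pseudocount, the strand, the denominator and leaving out a library. Python 3.11.15, scipy 1.17.1, numpy 2.4.6, pandas 2.3.3 and matplotlib 3.10.9 were used.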

Additional observations from a re-analysis of the deposited data

Results flagged for a closer look

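Mir10a had 4 counts on the strand opposite to the gene in replicate 2, above the 3 counts that a count of 0 allows, and 0 in replicate 1. The other 5 loci had no opposite-strand count in either library. Mir10a had 23923 sense counts in replicate 2. The 4 reads enter only the alternatives that count both strands, such as 4185 CPM for Mir10a.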

How the results depend on the processing

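None of the levels, shares, ratios and calls followed for the 6 loci changed direction under any alternative tried. The median log2 ratio of all 288 genes did, from 0.10 with total counts to -0.003 under TMM and -0.016 under DESeq2 size factors. Dividing by all reads of a library gave lower levels, 2088 CPM for Mir10a, 345.3 for Mir10b, 38.22 for Mir615, 79.76 for Mir196b and 3.075 for Mir196a-2, since that sum is larger by construction. The log2 ratio of anterior over posterior loci was 4.95 with Mir196b as the only posterior locus and 5.65 ± 0.322 as a difference of mean log2(CPM + 1) per locus. With a pseudocount of 0.5 count, Mir10a over Mir196a-1 was 12.74 and Mir615 over Mir196a-2 was 3.6. Genes called between the libraries numbered 39 at a minimum of 1 CPM, 45 with no minimum and 2 at a ratio of 2, where neither Mir10b (0.65) nor Mir615 (0.79) was called; more or fewer genes enter by construction. Mir10b was not called under TMM (0.55) or DESeq2 size factors (0.53).

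Leaving out each library in turn gave 3961 to 4853 CPM for Mir10a, 569.8 to 894.4 for Mir10b, 59.28 to 103.1 for Mir615, 153.3 to 183.3 for Mir196b, 5.133 to 7.90 for Mir196a-2 and 0.359 to 0.828 for Mir196a-1. The share of the 6 loci was 0.475% to 0.604%. Log2 ratios were 4.85 to 4.93 for anterior over posterior, 2.44 to 2.80 for Mir10a over Mir10b, 11.08 to 11.80 for Mir10a over Mir196a-1 and 3.30 to 3.55 for Mir615 over Mir196a-2. With 1 library left there is no comparison between libraries. No paired analysis was possible because the labels give 1 group. Depth limits Mir196a-1 and Mir196a-2, whose counts did not pass 44 in a library.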
